A study of Rattus norvegicus with 9 samples.

Results

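Sodium butyrate (NaBu) given together with angiotensin II (Ang II) was compared with Ang II alone in the left ventricle of Sprague-Dawley rats. The comparison used 6 of the 9 RNA-seq libraries of the study: 3 from Ang II rats and 3 from rats given Ang II and NaBu, all taken after 28 days in animals that were 8 weeks old at the start. The 3 saline libraries, of the same strain, age and time, entered the fit with them, and so its filter on low values, its scaling and its spread, and are given as a reference level. Every treated rat therefore carried Ang II, and NaBu was the one labelled difference. The labels give no dose or route. Nothing in them says that the 3 libraries of a group are 3 different rats, so the p-values below reflect only how much these libraries vary, which may be technical. The NaBu libraries are called by the numbers in their column names, 2, 4 and 6. Each group was deposited as a table of its own, so an effect of table-wise processing and an effect of the treatment cannot be told apart.

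Ang II constricts vessels and acts directly on heart cells, and rodents given it for weeks are a standard model of cardiac hypertrophy and fibrosis. Butyrate is a short-chain fatty acid made by gut bacteria. In cells it enters through monocarboxylate carriers and is oxidised in mitochondria as a fuel, it inhibits class I and II histone deacetylases, the enzymes that remove acetyl groups from histones, and it is sensed by G-protein-coupled receptors. Cardiac muscle draws most of its ATP from the mitochondrial oxidation of fatty acids, pyruvate, ketone bodies and amino acids.

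Levels are in CPM, estimated counts relative to the library total after TMM scaling, which sets each library to a common scale from the bulk of its genes. The 6 libraries held between 31367765 and 49865446 estimated counts and between 15877 and 16199 genes above 0. Low values of genes listed with 1 transcript piled up near multiples of 4 in the 9 libraries (1966 values of 4 or 5 against 810 of 6 or 7, and 1333 of 8 or 9 against 673 of 10 or 11), so 1 sequenced fragment was taken to be worth 4 estimated counts, a number that no label gives. The share of mt-Rnr2, the large mitochondrial ribosomal RNA, was 8.07% to 11.8% in Ang II and 6.46% to 7.56% in NaBu. As for the tissue label, the ventricular muscle markers summed to 60750 to 63150 CPM in Ang II and 72520 to 78990 CPM in NaBu, and the atrial markers to 111.5 to 201 CPM and 149.3 to 260 CPM. Saline replicate 2 stood apart, with atrial markers at 6039 CPM (191 and 361 CPM in the other saline libraries) and ventricular ones at 39780 CPM (62840 and 73140 CPM). Because the tissue is a mixture, fewer cells of a type and less RNA per cell cannot be told apart in any result below.

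With NaBu few genes were called, and most of those changed by less than a factor of 2. Of 15467 genes tested with edgeR's quasi-likelihood test, 100 rose (0.647%) and 148 fell (0.957%) at an adjusted p under 0.05, which is 1.60% called in either direction. At an unadjusted edgeR p under 0.05 there were 3458 genes. In simulated data the same fit recovered 16.4% of 67 genes changed 1.5-fold and 70.1% of 67 changed 2-fold. A gene without a call is thus not shown to be unchanged. The simulation gave all groups the same profile apart from the changed genes. In it the 9 libraries gave 117 calls and the 6 libraries alone 106, the reverse of the order in the real counts below. The recovery in the real data may therefore differ. The median change was 1.5-fold among the rises and 1.61-fold among the falls, and the 3 NaBu libraries lay wholly above or below the 3 Ang II libraries in each called gene. Over all genes tested the groups did not overlap in 35.6%, with NaBu higher in 18.1% and lower in 17.5%. The number called turned on which libraries were in the fit. With the 6 libraries of the 2 groups alone, whose biological coefficient of variation was 0.199 in place of 0.256 with the saline libraries, 1082 genes rose and 720 fell (7.12% and 4.74% of 15187), all 248 among them. When 1 Ang II or NaBu library was left out, at most 3 genes rose and at most 2 fell. Without saline replicate 1 the counts were 10 and 34, without replicate 2 of that group 968 and 514, and without its replicate 3 they were 270 and 290. Replicate 2 is the saline library with the high atrial markers, and the part of those markers in the spread was not tested. Of the called genes, 233 of 248 kept their sign in every alternative that gave a value, and the other 15 turned only when each gene was represented by its highest transcript. With no overlap between the groups in any called gene, leaving out a library could hardly turn a sign. The kept signs are thus no support for the calls.

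**Figure D1:**
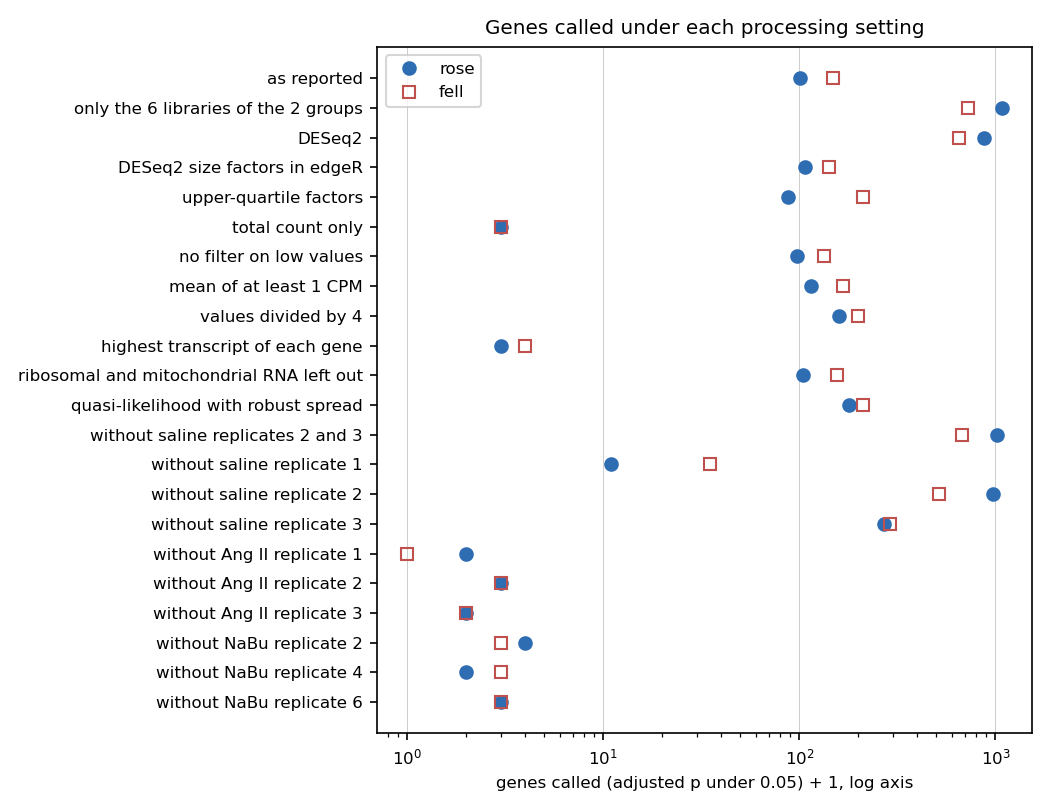
Number of genes called as risen (filled circles) or fallen (open squares) under each processing setting, plotted as the number plus 1 on a log axis. The counts are 100 and 148 as reported, reach 1082 and 720 with only the 6 libraries of the 2 groups, and are 0 to 3 when an Ang II or a NaBu library is left out.

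The gene lists used below were chosen with earlier results of these data known. A share of called members set beside that of all genes is therefore a description and no test of enrichment. Rises of signalling genes are described first. Mapkapk2, the kinase that p38 activates and that controls the stability of inflammatory messenger RNAs, was at 173, 200 and 175 CPM in the Ang II libraries and at 458, 415 and 446 CPM with NaBu. The saline libraries, at 160, 130 and 239 CPM, were on the Ang II side of that gap. The rise was 1.27 on the log2 scale (SE 0.191, edgeR adjusted p = 0.0372), and all of the gene's estimated counts sat on 1 of its 2 listed transcripts, XM_017598692.1. Of 25 tested p38 and Mapkapk2 pathway genes, only Mapkapk2 was called, 14 were higher and 11 lower, and the list median was 0.04 (-0.06 to 0.13 over the alternatives). For Mapk14, which encodes p38 alpha, the log2 difference was 0.07 (SE 0.0913; edgeR, adjusted p = 0.689). The phosphatase gene Dusp1 averaged 112 CPM in Ang II and 86.9 CPM in NaBu (edgeR adjusted p = 0.182).

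The adrenergic and protein kinase A list had 2 rises among 28 tested genes, where 0.647% of all genes rose. Both were of genes whose products hold the kinase back. Prkar2a, the RII-alpha regulatory subunit that holds the catalytic subunit inactive until cyclic AMP binds, was at 91.1, 107 and 113 CPM in Ang II and 175, 159 and 182 CPM in NaBu. Pkia, the inhibitor peptide of the catalytic subunit, rose from 442 ± 39.6 to 675 ± 43.5 CPM (SD, n = 3; log2 0.61, SE 0.115, edgeR adjusted p = 0.0427). In both genes the groups did not overlap. Of 28 tested adrenergic and protein kinase A genes 18 were higher and 10 lower, with a median of 0.22.

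Of 29 tested natriuretic peptide and hypertrophy genes 3 rose (Nppb, Fhl1 and Mef2d) and 1 fell (Myh7b), where 0.647% of all genes rose and 0.957% fell. In all 20 were higher, 13 of them apart (18.1% of all genes lay apart in that direction), and 9 lower, with a median of 0.21. Nppb, the B-type natriuretic peptide of stretched ventricle, was at 125, 99.9 and 137 CPM in Ang II and 175, 192 and 221 CPM in NaBu. Its main transcript, NM_031545.1, was at 144, 115 and 119 CPM in saline and 109, 85.4 and 122 CPM in Ang II. Fhl1, a LIM-domain protein of the stretch response, rose from 161 ± 14.9 to 240 ± 20.2 CPM (log2 0.57, SE 0.117, edgeR adjusted p = 0.0456), and saline lay at 179 to 219 CPM, between the 2 groups or level with the lowest NaBu library. Mef2d, a transcription factor that class II deacetylases repress, rose from 126 ± 3.18 to 180 ± 16.5 CPM (log2 0.52, SE 0.1, edgeR adjusted p = 0.0427). Its 9 transcripts differed in sign, with 6 higher and 3 lower, and when the gene was represented by its highest transcript the sign was the opposite (log2 -0.56; edgeR, adjusted p = 0.773).

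Other members of the hypertrophy list were higher without passing the test. Acta1, skeletal alpha-actin, which adult heart re-expresses under load, was at 425, 436 and 596 CPM in Ang II and 843, 784 and 926 CPM in NaBu, with no overlap (log2 0.81, SE 0.527, edgeR adjusted p = 0.397). With only the 6 libraries its edgeR adjusted p was 0.0137. In saline, replicate 2 was at 118 CPM and the other two at 700 and 908 CPM. Nppa, the atrial natriuretic peptide, averaged 36.4 and 66 CPM (edgeR adjusted p = 0.688) and was at 3464 CPM in saline replicate 2. The list of 10 atrial markers, which holds Nppa, was higher in 7 cases with a median of 0.45, and its part in the Nppa difference was not tested. For the main myosin heavy chains of the heart the log2 differences were small, at 0.10 (SE 0.116) for Myh6 and 0.01 (SE 0.319) for Myh7, with no call.

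Among the 15 largest falls of named genes of at least 5 CPM, Myh7b and Flrt1 had the highest levels. Myh7b, a slow-type myosin heavy chain whose gene also hosts a microRNA, was at 382, 306 and 307 CPM in Ang II and 165, 137 and 122 CPM in NaBu, and saline was at 241 to 323 CPM. Its 4 main transcripts were each lower with NaBu, with log2 differences of -0.73 to -1.53, none called alone. As Myh7b shares sequence with Myh6 and Myh7 and the assignment of shared reads is not given in the sources used here, its level is uncertain. Flrt1, a membrane protein with leucine-rich repeats that takes part in FGF signalling, was at 104, 82.1 and 88.7 CPM in Ang II and 32.5, 28.7 and 22.3 CPM in NaBu. Flrt1 was among the 6 genes called without at least 1 single Ang II or NaBu library.

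Further falls were of enzymes and membrane proteins. Carns1, the carnosine synthase of muscle, fell from 39.8 ± 2.9 to 19.9 ± 0.797 CPM (SE of the log2 change 0.146, edgeR adjusted p = 0.0343). Vash2, a tubulin carboxypeptidase, was at 30.7, 24.6 and 27.9 CPM in Ang II and 10.1, 12.9 and 15.8 CPM in NaBu. Lrrtm3, a membrane protein best known from synapses, fell from 22.9 ± 0.349 to 10.8 ± 1.89 CPM, Cyb5r2, a cytochrome b5 reductase, from 28.4 ± 3.13 to 13.9 ± 3.45 CPM, and Tmem82 from 11.6 ± 1.72 to 5.59 ± 0.727 CPM (SD, n = 3 for each). In each of these the range of the saline libraries overlapped that of Ang II. The remaining large falls were of Odf2l, from 15.9 ± 5.04 to 6.12 ± 0.764 CPM, Pdzd9, from 10.4 ± 3.24 to 4.26 ± 0.375 CPM, and Exnef, from 10.8 ± 1.44 to 4.45 ± 1.17 CPM. Trpm4, a calcium-activated cation channel, fell by 0.78 (SE 0.153), and Per3, a circadian repressor, fell by 0.73 (SE 0.151). Represented by its highest transcript, Per3 had a difference of 0.0571 and was not called. The clock gene Per1 averaged 111 and 72.3 CPM and was not called (edgeR adjusted p = 0.077).

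**Figure D2:**
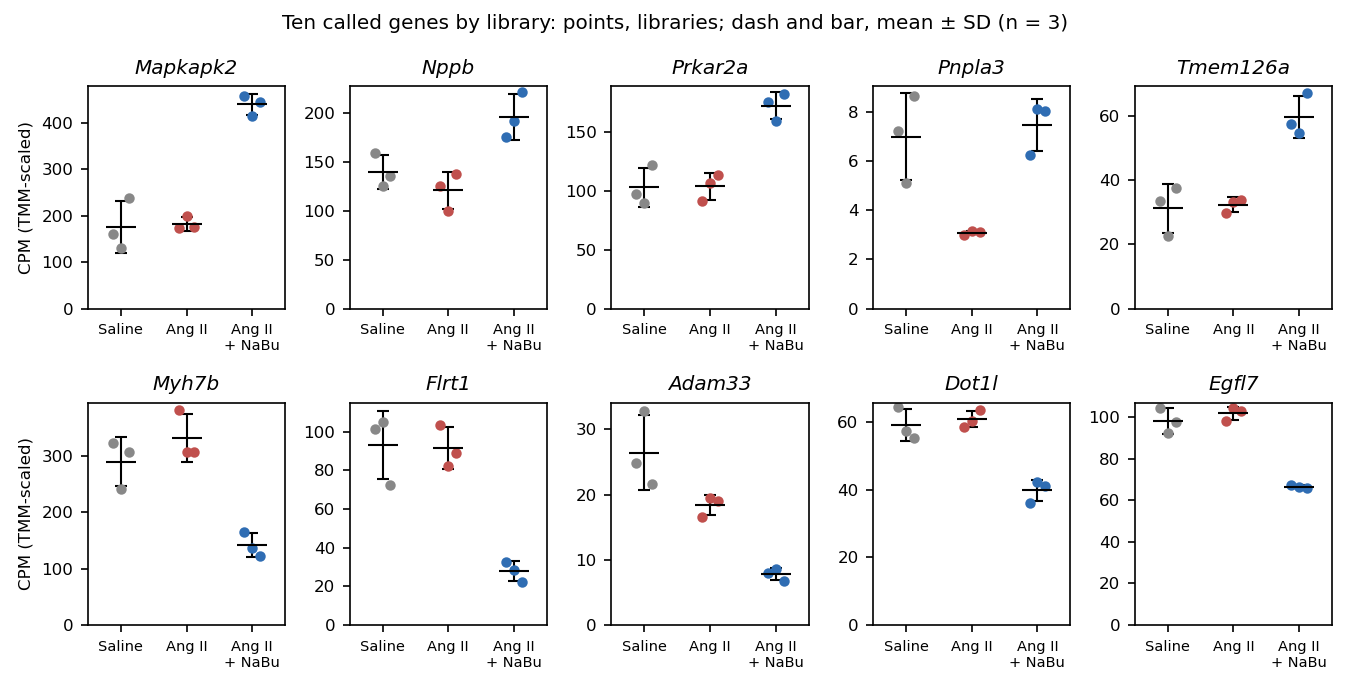
TMM-scaled CPM of 10 called genes in each library, with saline in grey, Ang II in red and Ang II with NaBu in blue, and the mean ± SD (n = 3) in black. In the upper row the 3 NaBu libraries lie above the 3 Ang II libraries (Mapkapk2 at 415 to 458 CPM against 173 to 200 CPM), and in the lower row below them (Flrt1 at 22.3 to 32.5 CPM against 82.1 to 104 CPM).

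Promoters of 4 leading genes are printed to show the regulatory sequence at their starts and the motifs counted over all called genes. RefSeq promoters (build GRCr8, 300 bases around the gene start) were found for 78 of the 100 rises and 108 of the 148 falls. They were searched on both strands for GGGCGG (the GC box that Sp1 family factors bind), CCAAT (bound by NF-Y), TGACGTCA (the full cyclic AMP response element) and TCAAGGTCA (an extended site of oestrogen-related receptors). Capitals mark the matches, and a match on the opposite strand appears as its reverse complement. None of the 4 motifs holds another.
Crkl, chr11:97067408-97067707, - strand: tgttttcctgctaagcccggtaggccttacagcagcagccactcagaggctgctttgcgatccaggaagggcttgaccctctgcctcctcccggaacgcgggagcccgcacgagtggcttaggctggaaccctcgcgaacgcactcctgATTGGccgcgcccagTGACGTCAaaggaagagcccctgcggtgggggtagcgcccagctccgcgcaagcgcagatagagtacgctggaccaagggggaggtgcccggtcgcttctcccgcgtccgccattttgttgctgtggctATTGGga
Pnpla3, chr7:117173278-117173577, + strand: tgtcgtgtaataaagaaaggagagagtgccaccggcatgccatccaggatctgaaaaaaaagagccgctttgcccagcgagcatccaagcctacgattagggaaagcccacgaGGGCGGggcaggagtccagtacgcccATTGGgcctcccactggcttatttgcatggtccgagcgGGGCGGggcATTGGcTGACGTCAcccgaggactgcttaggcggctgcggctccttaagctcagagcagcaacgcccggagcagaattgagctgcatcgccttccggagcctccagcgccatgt
Mapkapk2, chr13:45112277-45112576, - strand: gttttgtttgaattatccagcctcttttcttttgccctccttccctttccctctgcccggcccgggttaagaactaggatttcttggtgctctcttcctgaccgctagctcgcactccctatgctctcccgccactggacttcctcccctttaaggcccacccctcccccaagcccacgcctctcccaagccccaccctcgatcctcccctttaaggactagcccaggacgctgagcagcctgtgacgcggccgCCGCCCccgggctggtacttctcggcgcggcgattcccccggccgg
Myh7b, chr3:164558090-164558389, + strand: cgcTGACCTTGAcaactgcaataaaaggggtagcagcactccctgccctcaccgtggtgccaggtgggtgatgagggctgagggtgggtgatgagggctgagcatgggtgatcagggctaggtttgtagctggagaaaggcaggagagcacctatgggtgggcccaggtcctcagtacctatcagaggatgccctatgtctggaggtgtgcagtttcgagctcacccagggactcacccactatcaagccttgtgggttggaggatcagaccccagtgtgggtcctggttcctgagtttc

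Promoters of both Crkl and Pnpla3 held TGACGTCA and CCAAT, the Mapkapk2 promoter 1 GGGCGG, and the Myh7b promoter 1 TCAAGGTCA. GGGCGG occurred in 67.9% of the promoters of genes that rose and 44.4% of those that fell, where 59.9% of 10931 tested genes and 34.9% of all 27457 promoters held it. TGACGTCA occurred in 5 of 78 (6.41%) and 0 of 108, against 3.03% of tested genes and 1.91% of all promoters. TCAAGGTCA occurred in 0 of 78 and in 2 of 108 (1.85%), against 0.265% of tested genes and 0.412% of all. CCAAT hardly varied, at 39.7% and 37%, against 37.2% of tested genes and 37.7% of all. Median GC content was 64% for rises, 58.3% for falls and 60.3% for tested genes, so GC content moved with the share of GGGCGG, and its part in that share was not tested. A match describes these letters only, and none of these shares was tested.

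Most nuclear genes of mitochondrial energy metabolism were higher with NaBu, nearly all without a call of their own. The citrate cycle and pyruvate list was the most uniform: all 30 tested members were higher, in 29 the groups did not overlap (18.1% of all genes lay apart in that direction), and the median log2 difference was 0.41, where that of all genes was -0.02. With the 9 libraries edgeR called 0 of them (0.647% of all genes rose), with 16 at an unadjusted p under 0.05, DESeq2 called 10, and edgeR on the 6 libraries alone called 17 (7.12% of all genes). Pdha1, the catalytic subunit of pyruvate dehydrogenase, averaged 693 and 1127 CPM and narrowly missed the threshold (log2 0.70, edgeR adjusted p = 0.0501). Mpc2, a subunit of the mitochondrial pyruvate carrier, averaged 60.4 and 96.1 CPM, and the smallest differences were those of Sdhb (0.20) and Fh (0.21).

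In the lists of mitochondrial enzymes, ribosomes, import and respiration the medians lay between 0.30 and 0.41, and in that of PPAR and mitochondrial biogenesis genes the median was 0.11 (27 of 35 higher, 12 apart, and 0.01 with total count only). All 23 branched-chain amino acid breakdown genes were higher (18 apart, median 0.36), with edgeR calling 0, DESeq2 calling 7 and 14 at an unadjusted p under 0.05. They were led by Hibadh, a dehydrogenase of valine breakdown, at 158 and 280 CPM (edgeR adjusted p = 0.0527). Of 73 mitochondrial ribosomal protein genes 69 were higher and 46 apart (median 0.36; edgeR called 0, DESeq2 13, and 27 had an unadjusted p under 0.05). Of 39 import and dynamics genes 38 were higher and 24 apart (median 0.36). The called one was Tomm20, the outer membrane receptor for imported proteins, which was at 64.4, 68.2 and 66.9 CPM in Ang II and 102, 87.8 and 104 CPM in NaBu. Saline was lower still, at 45.4 to 60.2 CPM.

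Among respiratory chain genes 73 of 76 nuclear-encoded subunits were higher, 42 of them apart, with a median of 0.31 (edgeR called 0, DESeq2 12, and 20 had an unadjusted p under 0.05). The extremes were Sdhc, a membrane anchor of complex II, at 64 and 130 CPM, and Ndufc1, a complex I subunit, at 34.4 and 27.3 CPM, neither called. Of 39 assembly factor genes 34 were higher, and Tmem126a rose from 32.3 ± 2.25 to 59.7 ± 6.56 CPM (log2 0.88, SE 0.168, edgeR adjusted p = 0.0427). Tmem126a is an inner membrane protein that takes part in complex I assembly. Tfb2m, the factor that opens the mitochondrial promoters for transcription, rose by 0.58 (SE 0.121), from 38.5 ± 2.93 to 57.7 ± 3.08 CPM. The mitochondrial RNAs themselves could be followed through 2 genes, of which mt-Rnr2 averaged 93720 and 72850 CPM and mt-Rnr1 962 and 1261 CPM, with no call.

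Fatty acid oxidation genes were higher in 32 of 34 cases (22 apart, median 0.33). Acsf2, a mitochondrial acyl-CoA synthetase for medium-chain fatty acids, rose from 168, 203 and 181 CPM to 327, 279 and 316 CPM (log2 0.74, SE 0.151, edgeR adjusted p = 0.0447). Etfdh, which passes electrons from fatty acid oxidation to ubiquinone, averaged 345 and 575 CPM and was not called (edgeR adjusted p = 0.0827). In the list of butyrate uptake and oxidation genes 14 of 17 tested members were higher and 8 apart (median 0.31; edgeR called 0, DESeq2 1, and 4 had an unadjusted p under 0.05). Oxct1, the enzyme that activates ketone bodies, averaged 1673 and 2471 CPM (log2 0.56, SE 0.231, edgeR adjusted p = 0.19), and Slc16a1, the carrier MCT1 that takes up butyrate, 303 and 404 CPM (edgeR adjusted p = 0.381). The receptor gene Ffar3 was listed at 0 in all 6 libraries.

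The medians of these mitochondrial lists, the mitochondrial RNAs aside, were above 0 in all alternatives, and Ang II replicate 1 moved with them. In that library the medians of the mitochondrial lists lay below those of Ang II replicates 2 and 3, for instance at -0.21 against 0.09 and 0.13 for the respiratory chain and at -0.28 against 0.13 and 0.13 for fatty acid oxidation, relative to the Ang II mean. On that scale the respiratory chain was at 0.13, -0.52 and 0.24 in saline and 0.25, 0.29 and 0.43 in NaBu. Fatty acid oxidation was at 0.04, -0.52 and 0.04 in saline and 0.28, 0.30 and 0.46 in NaBu. In both lists the saline libraries differed among themselves by more than the median difference between NaBu and Ang II. Leaving out single libraries gave medians from 0.34 to 0.50 for the citrate cycle, 0.22 to 0.39 for the respiratory chain and 0.21 to 0.42 for fatty acid oxidation. Ventricular muscle markers shifted in the same direction (13 of 14 higher, median 0.41), and their part and that of Ang II replicate 1 in the mitochondrial result was not tested beyond these values.

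**Figure D3:**
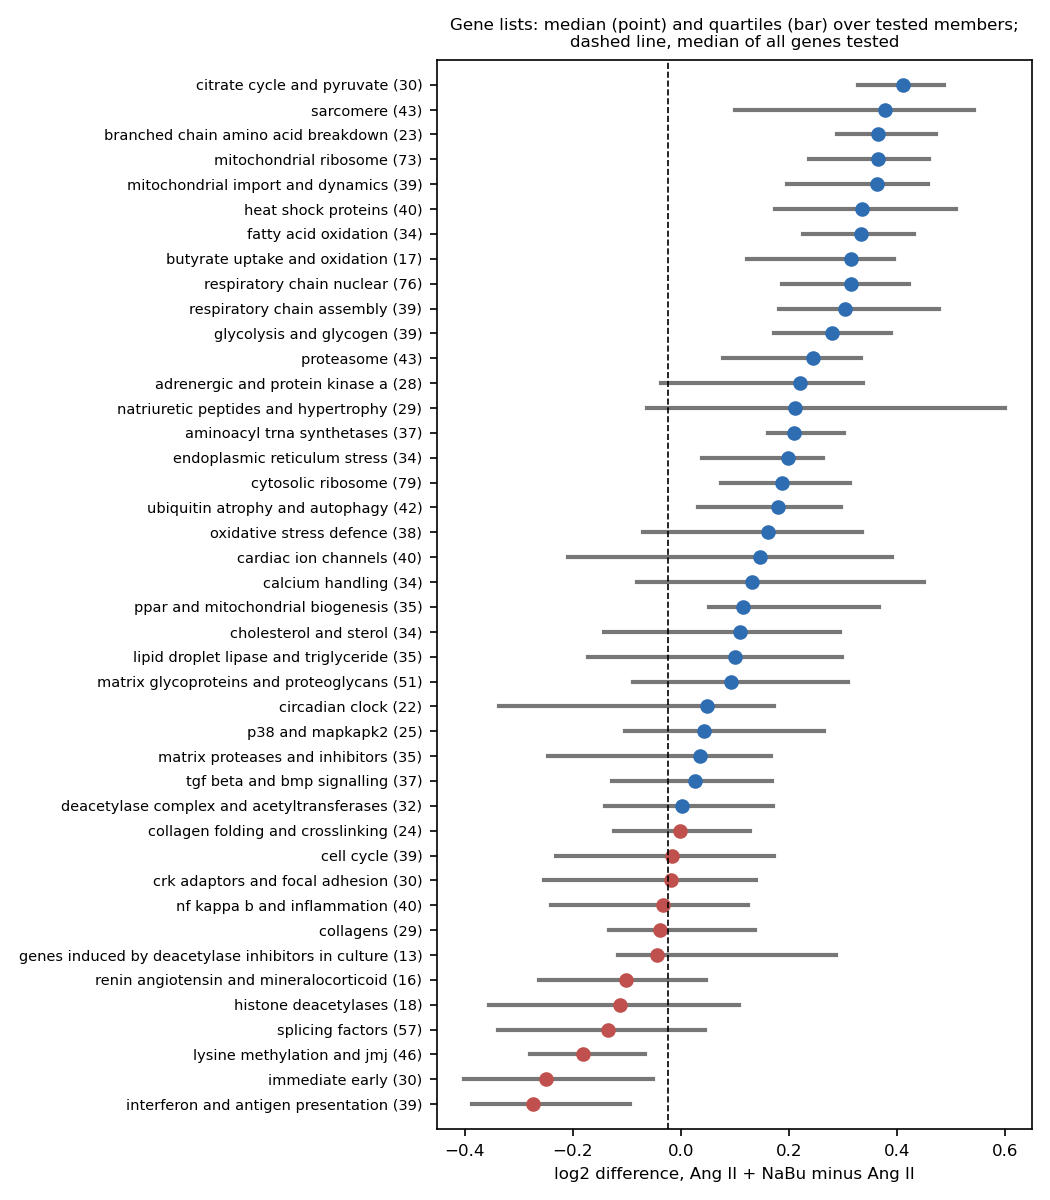
Log2 difference between NaBu and Ang II for 42 pathway lists, with the median of the tested members as a point, the quartiles of the members as a bar and the number of members in parentheses. The dashed line is the median of all genes (-0.02). The citrate cycle list (0.41) is at the top and the interferon and antigen presentation list (-0.27) at the bottom.

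Lipid storage genes split in both directions, with 2 rises and 3 falls among 35 tested, where 0.647% of all genes rose and 0.957% fell. Pnpla3, a lipase and acyltransferase of lipid droplets that responds to feeding, was at 3.01, 3.16 and 3.12 CPM in Ang II and 6.26, 8.12 and 8.07 CPM in NaBu. Saline was at 7.23, 5.13 and 8.67 CPM, so the NaBu libraries lay in the saline range and the Ang II libraries under it. Vldlr, the receptor that brings triglyceride-rich lipoproteins to heart muscle, rose from 135 ± 17.6 to 214 ± 32 CPM (log2 0.67, SE 0.138, edgeR adjusted p = 0.0465). Lipe, the hormone-sensitive lipase, fell from 122 ± 5.14 to 88 ± 3.6 CPM. Pnpla7, a lysophospholipase, fell by 0.67 (SE 0.13), and Lcat, which esterifies cholesterol on lipoproteins, fell by 1.25 (SE 0.251), from 8.5 ± 0.6 to 3.56 ± 0.463 CPM. Adipocyte markers were lower in all 5 tested of 10 listed, Lipe included, with a sum of 503 to 688 CPM in Ang II and 427 to 566 CPM in NaBu. Adipoq and Plin1 did not pass the filter on low values, and Cidec, Ucp1 and Retn were at 0 in all 6 libraries. Fabp4, which is among the 5, is also on the endothelial list, so these values do not single out adipocyte RNA. The part of adipocyte RNA in the fall of Lipe was not tested.

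Most protein synthesis and folding genes were higher with NaBu. Of 40 tested heat shock and chaperone genes 36 were higher and 26 apart (18.1% of all genes lay apart in that direction), with a median of 0.34. Among them 2 rose, where 0.647% of all genes did: Tcp1, a subunit of the cytosolic chaperonin, from 78.4 ± 2.09 to 116 ± 8.76 CPM (log2 0.57, SE 0.0899, edgeR adjusted p = 0.0372), and Bag2, a co-chaperone of Hsp70, from 14.4 ± 0.93 to 21.2 ± 1.75 CPM. The stress-inducible Hspa1a went against the list, at 21 and 12.8 CPM (edgeR adjusted p = 0.371). Of 34 endoplasmic reticulum stress genes 26 were higher (median 0.20), and the chaperone gene Canx (511, 537 and 519 CPM in Ang II, 740, 669 and 709 CPM in NaBu) and Herpud1, a factor of the degradation of misfolded proteins, rose.

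Of 79 cytosolic ribosomal protein genes 72 were higher (median 0.19), and 3 rose, where 0.647% of all genes did. These were Rpl7, Rpl13 and Rpl17, by 0.44, 0.54 and 0.65 on the log2 scale. Members of the list ran from -0.684 to 9.655, with no call at either end. Ribosomal protein genes have many near-identical pseudogenes, which makes single values uncertain. Farsb, a subunit of the phenylalanine tRNA synthetase, rose from 26.5 ± 0.947 to 35.7 ± 0.259 CPM. It was the only rise among 37 synthetase genes, of which 33 were higher. Eif3j, which belongs to a translation initiation factor, rose by 0.73 (SE 0.151). Proteasome genes were higher in 35 of 43 cases (median 0.24), while the immune subunits Psmb8 (-0.38) and Psmb10 (-0.30) had the lowest differences. edgeR called 0 proteasome genes, DESeq2 called 11, and 19 had an unadjusted p under 0.05.

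Of 43 tested sarcomere genes 36 were higher, 27 apart, with a median of 0.38, 1 rise (Cmya5) and 1 fall (Myh7b). Of 34 calcium handling genes 23 were higher and 1 rose (Asph), and of 40 ion channel and pump genes 23 were higher and 17 lower, with 1 rise (Atp1b1) and 1 fall (Trpm4). Of all genes 0.647% rose, 0.957% fell and 18.1% lay apart with NaBu higher. Cmya5 (myospryn), which anchors proteins at the Z-disc, was at 1462, 1522 and 1462 CPM in Ang II and 2361, 2157 and 2373 CPM in NaBu (log2 0.63, edgeR adjusted p = 0.0445). Asph, whose products include junctin of the calcium release complex, rose from 160 ± 6.52 to 256 ± 33 CPM. Atp1b1, the beta subunit of the sodium pump, rose from 226 ± 22.4 to 343 ± 34.3 CPM (log2 0.60, SE 0.114, edgeR adjusted p = 0.0427). Hcn4, the pacemaker channel, averaged 6.22 and 17 CPM without a call (edgeR adjusted p = 0.097).

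Fibrosis genes showed no common direction between Ang II and NaBu. The collagen list summed to 5041, 6175 and 6380 CPM in saline, 5031 to 5082 CPM in Ang II and 4823 to 5441 CPM in NaBu. In that sum the Ang II libraries did not stand above saline. Of 29 tested collagen genes 1 fell and 0 rose with edgeR, 2 fell and 0 rose with DESeq2, and 2 lower and 0 higher ones had an unadjusted p under 0.05. In all 12 were higher and 17 lower, with a median of -0.04 that became 0.02 when Ang II replicate 1 was left out and 0.01 when replicate 2 of that group was. Col1a1, the main fibrillar collagen chain, was at 280, 328 and 313 CPM in Ang II and 323, 409 and 311 CPM in NaBu (log2 0.18, SE 0.217, edgeR adjusted p = 0.672), so the groups overlapped. Col3a1 averaged 1119 and 1230 CPM and Fn1, fibronectin, 149 and 178 CPM, also overlapping. The collagen that fell was Col11a2, a chain of a minor cartilage-type collagen, from 9.13 ± 0.743 to 2.45 ± 0.502 CPM (log2 -1.90, SE 0.291, edgeR adjusted p = 0.0372).

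Of 51 tested matrix glycoprotein and proteoglycan genes 33 were higher and 18 lower, with a median of 0.09 (-0.02 with total count only). edgeR called 0 of them and DESeq2 5 (3 rises, 2 falls), with 6 higher and 2 lower at an unadjusted p under 0.05. Relative to the Ang II mean, the medians of this list in the saline libraries were 0.08, 0.63 and 0.55. Postn, periostin of activated fibroblasts, was at 8.64, 9.87 and 9.52 CPM in Ang II and 11.4, 39.5 and 22.2 CPM in NaBu (log2 1.38, SE 0.697, edgeR adjusted p = 0.272). Ctgf, a target of TGF-beta and of the Hippo pathway, was at 44, 45.8 and 47.6 CPM in Ang II and 56, 75.2 and 78.2 CPM in NaBu (log2 0.61, SE 0.148, edgeR adjusted p = 0.0667), and saline was at 64.3 to 88.2 CPM. Both were called with the 6 libraries alone (adjusted p = 0.042 and 0.0211). Of 37 TGF-beta and BMP signalling genes edgeR called 0 and DESeq2 1, with 5 at an unadjusted p under 0.05 (2 higher, 3 lower), and Tgfb1 had a log2 difference of -0.07 (SE 0.148). Acta2, smooth muscle actin of myofibroblasts and vessels, averaged 90.8 and 71.8 CPM (edgeR adjusted p = 0.615).

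Matrix-cleaving enzymes and their inhibitors gave 4 falls among 35 tested genes (0.957% of all genes fell), while 19 were higher and 16 lower, with a median of 0.04 that was -0.07 with total count only. edgeR and DESeq2 called 0 rises there, with 1 higher gene at an unadjusted p under 0.05. Adam33, a metalloprotease of mesenchymal cells, was at 16.6, 19.5 and 19.1 CPM in Ang II and 7.96, 8.56 and 6.78 CPM in NaBu, with saline higher at 21.6 to 32.8 CPM. The proteoglycan-cleaving Adamts9 fell from 148 ± 11.6 to 100 ± 9.67 CPM and Adamts10, a fibrillin-associated member of the family, from 51.2 ± 2.54 to 35.7 ± 1.69 CPM. Timp4, the tissue inhibitor of metalloproteases most abundant in heart, fell from 79.9, 83.1 and 80.1 CPM to 56.5, 57.4 and 53.9 CPM (log2 -0.53, SE 0.0901, edgeR adjusted p = 0.0415). For Timp4 saline was at 57.4 to 66.7 CPM, and the NaBu and saline levels were close (log2 -0.12, edgeR adjusted p = 0.461), a comparison that uses the same NaBu libraries. Fibroblast markers were higher in 10 of 16 cases, with an overlapping sum of 4446 to 4733 CPM in Ang II and 4380 to 5239 CPM in NaBu.

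Histone deacetylase and sirtuin genes gave 0 calls at the RNA level with edgeR and 1, a fall, with DESeq2. Among them 4 lower genes had an unadjusted edgeR p under 0.05. The class I and II deacetylases that butyrate inhibits are part of this list, and the counts are of the whole list. Of 18 tested histone deacetylase and sirtuin genes 8 were higher and 10 lower, with a median of -0.11 that ran from -0.22 to 0.03 over the alternatives. Hdac1 had a log2 difference of -0.14 (SE 0.116), Hdac2 of 0.14 (SE 0.112) and Hdac3 of 0.18 (SE 0.1). The class II member Hdac4 was at 31.8, 29.6 and 32.4 CPM in Ang II and 23.6, 26.8 and 24.1 CPM in NaBu, apart but not called (log2 -0.33, SE 0.122, edgeR adjusted p = 0.151). Genes that deacetylase inhibitors are known to induce in cultured cells were higher in 6 and lower in 7 of 13 cases, 3 of them apart and higher, with 0 calls by edgeR or DESeq2 on the 9 libraries, 0 at an unadjusted p under 0.05 and 1 rise by edgeR on the 6 libraries alone. Of these, Cdkn1a, the cell cycle inhibitor p21 that is the usual example, averaged 37.9 and 30.5 CPM (edgeR adjusted p = 0.39). Bdnf, a growth factor, was at 32.3, 21.8 and 21.7 CPM in Ang II and 44.4, 42.2 and 51.4 CPM in NaBu (log2 0.86, SE 0.234, edgeR adjusted p = 0.0818; 0.0165 with the 6 libraries alone).

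Genes of several nuclear regulators were lower with NaBu. Of 46 tested lysine methylation and Jumonji genes 38 were lower, 24 of them apart (17.5% of all genes lay apart in that direction), with a median of -0.18. Dot1l, the methyltransferase of histone H3 in transcribed genes, was at 58.6, 60.4 and 63.4 CPM in Ang II and 36.2, 42.1 and 41 CPM in NaBu (log2 -0.61, SE 0.0979, edgeR adjusted p = 0.0372). Jmjd7, a Jumonji-domain hydroxylase, fell from 21.9 ± 1.59 to 10.1 ± 1.19 CPM. The muscle methyltransferase Smyd1 had the highest difference of that list, at 566 and 816 CPM (edgeR adjusted p = 0.107).

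Of 57 splicing factor genes 42 were lower, 24 apart, with a median of -0.14 and 3 falls (0.957% of all genes fell). The falls were of Srsf5, Srrm1 and Pnisr, SR or SR-related proteins, by 0.48, 0.57 and 0.59 on the log2 scale. Rbm24 rose, as the only called rise of that list. It is a splicing regulator of heart and skeletal muscle and went from 142 ± 3.91 to 198 ± 14.9 CPM (log2 0.48, SE 0.0915, edgeR adjusted p = 0.0427). Immediate early genes were lower in 23 of 30 cases (median -0.25). edgeR called 0 of them and DESeq2 4 (1 rise, 3 falls), 8 had an unadjusted p under 0.05 (1 higher, 7 lower), and Fos averaged 16.5 and 7.4 CPM. Interferon and antigen presentation genes were lower in 32 of 39 cases (median -0.27). Irf3, a transcription factor that switches on type I interferon, fell from 39.1, 39.3 and 39 CPM to 26.3, 25.7 and 25.1 CPM (log2 -0.61, SE 0.0918, edgeR adjusted p = 0.0372), with very little spread in either group.

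Among cell cycle and inflammatory genes single members rose. Cks1b, a small partner of cyclin-dependent kinases, was at 12.6, 15.9 and 15.2 CPM in Ang II and 25.8, 24 and 25.3 CPM in NaBu, while 23 of 39 tested cell cycle genes were lower (median -0.02, and -0.14 to 0.04 over the alternatives). Tank, an adaptor that restrains NF-kappaB signalling through TRAF proteins, rose from 10.3 ± 0.73 to 17.1 ± 1.05 CPM, while the list of NF-kappaB and inflammation genes was divided at 19 higher and 21 lower. Ptgs2, cyclooxygenase-2, was low, at 0.581 ± 0.143 and 1.25 ± 0.272 CPM (edgeR adjusted p = 0.309). Further rises outside the lists were of Brk1, a subunit of the actin-regulating WAVE complex, by 0.71, Txndc17, a thioredoxin-like protein, by 0.72, and the serine protease gene Prss23 by 0.72, with Scrn3 (0.75), Tceal8 (0.89) and Pter (0.71) also called.

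Markers of several cell types moved with these results. Endothelial markers were lower in 16 of 16 cases, 10 apart, where 17.5% of all genes lay apart in that direction. Their median was -0.24, with a sum of 3290 to 3838 CPM in Ang II and 2786 to 3319 CPM in NaBu. Egfl7, a secreted endothelial protein, was the only one called, at 98, 104 and 103 CPM in Ang II and 67.3, 66.2 and 66 CPM in NaBu (log2 -0.61, SE 0.0842, edgeR adjusted p = 0.0296). Smooth muscle and pericyte markers were lower in 15 of 15 cases (median -0.22, sum 1908 to 2050 against 1597 to 1920 CPM). Macrophage markers were higher in 10 of 15 cases (median 0.14), and lymphocyte markers lower in 15 of 17 (median -0.43). Their part in the falls of endothelial, interferon and nuclear regulator genes was not tested.

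Transcripts of platelets and red cells were lower on average with NaBu than with Ang II. All 14 platelet markers were lower and 7 lay apart, where 17.5% of all genes lay apart in that direction. Their median was -1.63, with a sum of 36.5 to 88.1 CPM in Ang II and 21 to 28.8 CPM in NaBu. In saline the platelet sums were 29.4, 53 and 32.4 CPM. Itga2b, the platelet integrin alpha chain, was at 13.7, 5.6 and 14.2 CPM in Ang II and 2.46, 3.59 and 2.37 CPM in NaBu (log2 -1.99, SE 0.341, edgeR adjusted p = 0.0415). Ang II replicate 2 was thus much closer to the NaBu libraries than the other two, and the platelet median of that library was -0.91 relative to the Ang II mean. Pf4, platelet factor 4, averaged 9.96 and 3.27 CPM (edgeR adjusted p = 0.0602). All 13 erythroid markers were lower too (median -0.48), but only 2 lay apart, with edgeR calling 0 and DESeq2 2. Their sums overlapped, at 2628 to 4629 CPM in Ang II and 2335 to 2941 CPM in NaBu, with saline at 1936, 2455 and 2796 CPM. The erythroid median of Ang II replicate 2 was -0.33 relative to the Ang II mean, against -0.28, -0.61 and -0.30 in the NaBu libraries. The part of blood cell RNA in the other falls was not tested.

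**Figure D4:**
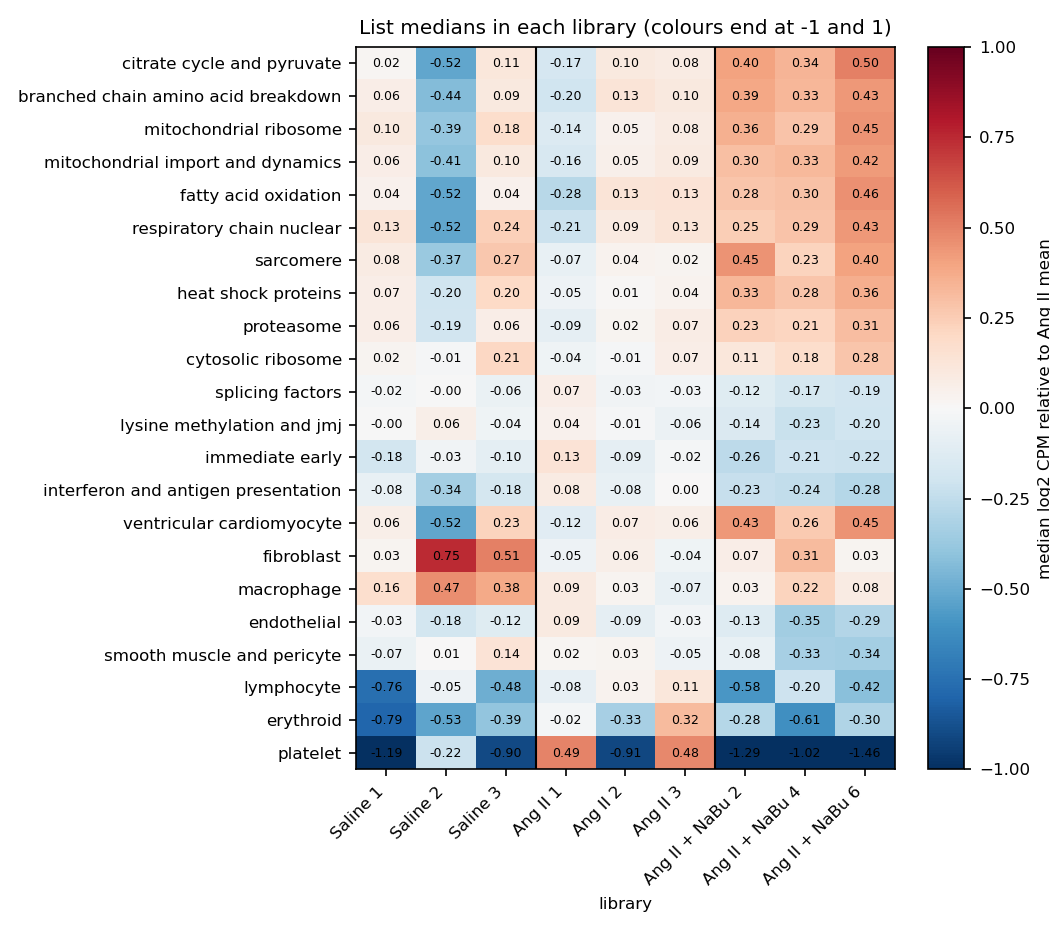
Median log2 CPM of each gene list in each of the 9 libraries relative to the mean of the 3 Ang II libraries, in red where higher and blue where lower. Citrate cycle medians are 0.34 to 0.50 in the NaBu libraries and -0.17 to 0.10 in the Ang II libraries, and platelet medians are -1.46 to -1.02 and -0.91 to 0.49.

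A pair of genes was at 0 in every library of 1 group and at 100 or more estimated counts in every library of the other. The unnamed locus LOC100911537 missed that rule, at 0 in each Ang II library and 339, 337 and 17 in NaBu. In saline that locus was at 232, 351 and 169. Crkl, whose product links receptor tyrosine kinases to small GTPases, was at 653, 698 and 883 estimated counts with NaBu and listed at 0 in every Ang II and saline library. If these zeros are real, Crkl was at least 49.4-fold higher than in Ang II, at a floor of 3 fragments (taken as 12 estimated counts) per library. It was called as reported (edgeR adjusted p = 0.000915) and in all 21 alternatives, with adjusted p of at most 0.041. Exoc7, a subunit of the exocyst that tethers secretory vesicles, showed the reverse, at 402, 361 and 446 estimated counts in Ang II and 0 in the 3 NaBu libraries (edgeR adjusted p = 0.0905). If those zeros are real, Exoc7 was at least 31.4-fold lower with NaBu at the same floor. Saline did not side with either group for Exoc7, at 385, 0 and 0 estimated counts. Zeros next to high values occurred in a few genes within groups as well. In Ang II 37 genes were at 0 in 1 library and at 100 or more estimated counts in the other two, and 20 genes were so in NaBu. Genes at 100 or more in all 3 libraries numbered 11590 in Ang II and 11585 in NaBu. A value of 0 in these tables can thus be a failed estimate, in which case the folds of Crkl and Exoc7 do not hold. Crkl and Exoc7 are each listed with 1 transcript.

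At the level of single transcripts, 2 of 31914 rose (0.00627%) and 3 fell (0.00940%), or 0.0157% in either direction. None of these 5 calls was made with the 6 libraries alone, where edgeR called 0 transcripts, DESeq2 called 1506 rises and 1099 falls, and 1908 higher and 1431 lower transcripts had an unadjusted edgeR p under 0.05. Leaving out single libraries gave 1 to 10 rises and 1 to 13 falls. Estimated values of transcripts that share exons are not independent, and 1357 transcripts were at 0 in 1 Ang II library and at 100 or more in the other two, against 1374 in NaBu. The called transcripts of Mtfr1l, Tfrc, Tmem164, Asb11 and LOC100911832 stood beside other transcripts of the same gene that differed in the opposite direction. For Mtfr1l, a mitochondrial fission regulator family member, transcript NM_001013935.1 was at 0, 0 and 1 estimated counts in Ang II, 3891, 3170 and 4513 in NaBu and 2386, 2894 and 1130 in saline. It made up 0.00555% of the gene's estimated counts in Ang II and 52.6% in NaBu.

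Tfrc, the transferrin receptor that brings iron into cells, had its counts spread differently over 3 transcripts in the groups. Transcript NM_022712.1 was at 103, 113 and 107 CPM in Ang II and 42.6, 38.2 and 34.8 CPM in NaBu (log2 -1.48, SE 0.107, edgeR adjusted p = 0.0149). Transcript XM_006248463.3 of Tfrc was at 9.6, 20.6 and 23.7 CPM in Ang II and 115, 103 and 125 CPM in NaBu, not called (edgeR adjusted p = 0.378). NM_022712.1 thus held 70.8% to 84.2% of Tfrc in Ang II and 15.3% to 22.6% in NaBu. For Asb11, a muscle ubiquitin ligase subunit, NM_001106962.1 was at 18, 13 and 21 estimated counts in Ang II and 714, 378 and 507 in NaBu. Its transcript XM_006256858.3 was at 1053, 1322 and 1707 in Ang II and 510, 753 and 1057 in NaBu, not called. For Tmem164, NM_001109014.1 was at 979, 411 and 607 estimated counts in Ang II and 0 in each NaBu library. The fifth called transcript belongs to the unnamed locus LOC100911832 and fell from 251, 420 and 425 estimated counts to 1 in each NaBu library. The other transcript of that locus, XM_003752068.4, was at 129, 0 and 0 in Ang II and 340, 324 and 365 in NaBu, not called.

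**Figure D5:**
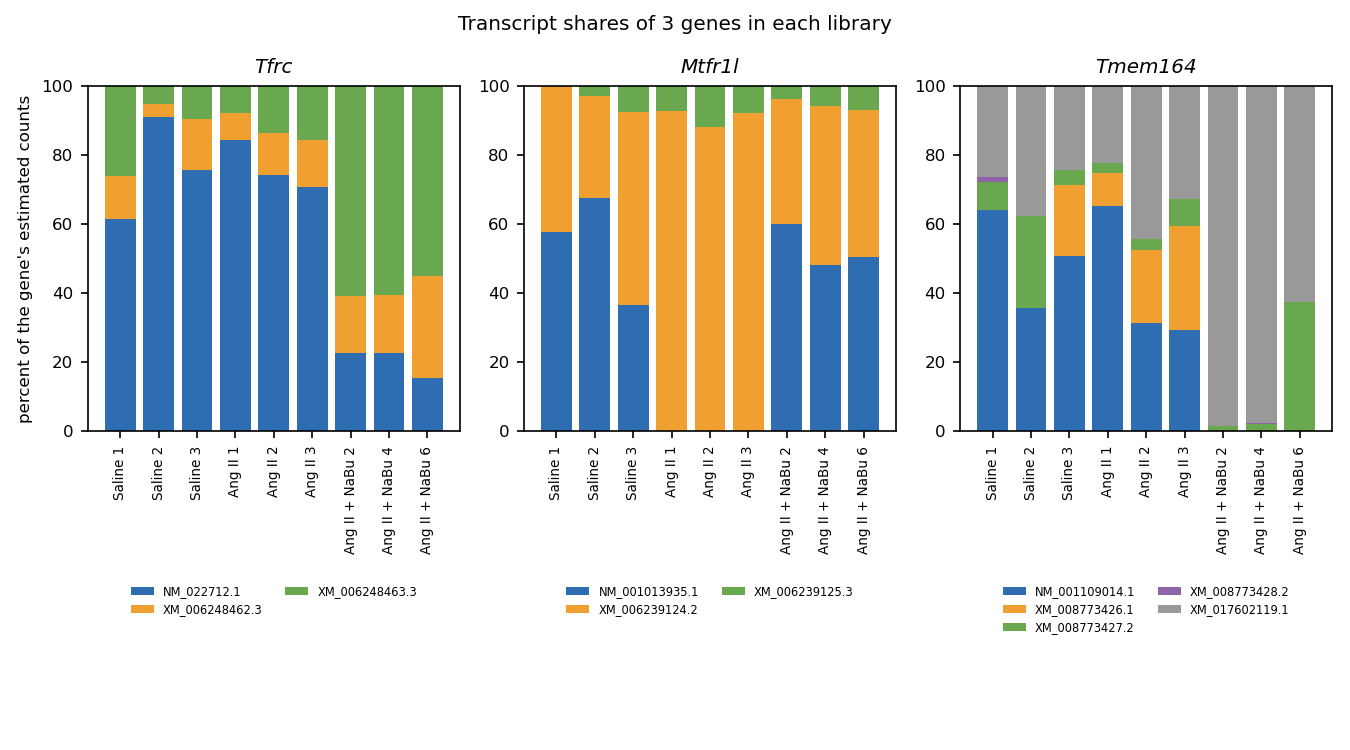
Share of each transcript in the estimated counts of Tfrc, Mtfr1l and Tmem164 in each library, in percent, with each colour a transcript named by its RefSeq ID. NM_022712.1 of Tfrc holds 70.8% to 84.2% in the Ang II libraries and 15.3% to 22.6% in the NaBu libraries.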

How the data were processed

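For each group the authors deposited estimated counts of single transcripts, with a gene name and a column for each library, per the file headers. The deposited saline values are of the same kind, but their unit is recorded as other because a stray line-end sits inside the last column, which was stripped on reading. Bowtie 0.12.2 and the mouse build mm8 appear in the submitters' processing notes, and the transcripts carry rat RefSeq names. The counter, with its strand setting, is not given in the sources used here. The design text of the series describes another tissue and was not used.

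Whole-number values of 55767 transcripts were summed into 22608 gene names and fitted with edgeR 4.0.16 in R 4.3.3 (filterByExpr, TMM factors 0.887 to 1.14, quasi-likelihood test) over all 9 libraries, with Benjamini-Hochberg adjustment over all genes tested. SE is the log2 difference over the square root of F. DESeq2 1.42.0 was an alternative, and the fit was tested on simulated data. Genes were named by rule, of which the text gives a part: the 15 largest called changes per direction with no overlap and a mean of at least 5 CPM, called list members, list ends, all-or-none genes, and a set of fibrosis, hypertrophy and deacetylase genes. Slc16a1, Ffar3 and the genes of called transcripts were named after their values were seen. The members and the 57 lists were chosen with earlier results of these data known.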

Additional observations from a re-analysis of the deposited data

How the results depend on the processing

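The count of calls depended on the libraries in the fit and on the test, the scaling and the choice of transcripts, and the cause was not tested. Leaving out a library also lowers the number of libraries, so these parts cannot be told apart. Genes that rose and fell numbered 1082 and 720 with only the 6 libraries of the 2 groups, 872 and 649 with DESeq2, 2 and 2 with total count only, 159 and 197 with values divided by 4, and 2 and 3 with the highest transcript of each gene. Alternatives chosen after seeing the data gave 179 and 210 with a robust spread, and 1020 and 675 without saline replicates 2 and 3. Leaving out single libraries gave 1 to 968 rises and 0 to 514 falls, with 10 and 34 without saline replicate 1 and 968 and 514 without saline replicate 2. Without Ang II replicate 1, 1 gene rose and 0 fell with edgeR, where DESeq2 called 244 and 222, and 1120 lower genes had an unadjusted edgeR p under 0.05. Only Crkl was called without each single Ang II or NaBu library. Upper-quartile scaling gave 87 and 209. The median of all genes was -0.13 with total count only and -0.06 with upper-quartile scaling. Transcripts that rose and fell numbered 0 and 0 with edgeR on only the 6 libraries and from 1 to 10 and from 1 to 13 when single libraries were left out. With the highest transcript of each gene Mef2d turned to -0.56 and Per3 to 0.0571. No paired analysis was possible because the NaBu columns are numbered 2, 4 and 6 and share 1 number with the Ang II columns. With 1 fragment taken as 4 counts, genes of a few CPM rest on few fragments.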
